A study of Mus musculus with 219 samples.

Results

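The data concern monozygotic twin blastocysts of the mouse, 38 single-embryo libraries that form 19 pairs, among 219 samples in the whole series and 69 blastocysts with deposited counts. Both libraries of a pair carry the same embryo number in the labels and the letters a and b, and every such pair was taken. Only embryos in which both blastomeres formed a blastocyst, and both libraries were kept by the study, can form a pair. Other split embryos are not covered here. Pairs are named here by the labels' short form of the site (Co, Is or Eq) and that number, as in Co-122, and twins by adding the letter. Oocytes of B6C3F1 females were fertilized by intracytoplasmic sperm injection (ICSI) with CD1 sperm, so all groups share the cross B6C3F1xCD1. The genotype of single embryos was not measured, and the part of genotype differences between pairs was not tested. The sperm head was released opposite the meiotic spindle (contralateral, Co, the vegetal pole; 6 pairs), beside it (ipsilateral, Is, the animal pole; 7 pairs) or at the equator between the poles (equatorial, Eq; 6 pairs). At the 2-cell stage the embryo was split, each blastomere was grown on its own in KSOM medium with amino acids until it formed a blastocyst, and that blastocyst was lysed and sequenced as 1 library. The other 31 blastocysts grew from intact embryos and enter no comparison here. The question was how far twins of 1 embryo resemble each other more than embryos of the same ICSI site that are not twins, and in which genes.

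Splitting a 2-cell embryo gives each blastomere the same genome and roughly equal amounts of the egg's cytoplasm. Either one can compact, cavitate and form a blastocyst with fewer cells than an intact one. A blastocyst holds an outer trophectoderm, which pumps fluid into the blastocoel and later forms placenta, and an inner cell mass. The inner cell mass in turn sorts into epiblast, the source of the fetus, and primitive endoderm, the source of yolk sac tissue that lays down basement membrane. The lineages form after the split, separately in each twin. The study proposes that sister blastomeres receive different animal and vegetal material of the egg and so differ from the start. As each library holds a whole blastocyst, fewer cells of a type and less RNA per cell cannot be told apart, and as each twin was sequenced once, a difference between embryos and a difference between library preparations cannot be told apart either.

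Total counts ran from 713410 to 2161062 (median 1093478), and the deeper twin of a pair had 1.00 to 2.49 times the counts of the other (median 1.14). Between 10605 and 13247 genes were detected per library. The a twins of pairs Co-122, Is-121 and Is-117 had the fewest, with 10605, 11531 and 11577 genes, and these libraries were also the farthest from the other embryos of their sites. Results that rest on these pairs are therefore also given without them, an alternative chosen after the data were seen. The twins of these pairs also differed the most from each other, so leaving them out lowers the spread within pairs by construction. Calls or higher ICCs (intraclass correlations, defined below) gained that way are no added support for likeness of twins. The blastocyst label held against its markers: 19 of 20 trophectoderm, 16 of 19 epiblast and 15 of 21 primitive endoderm genes averaged 20 CPM or more (counts scaled to 1000000 per library), the level required for a gene to be tested, which 7701 of 32285 genes met. Of 10 cumulus cell markers 7 had no count, and their summed level was at most 1.08 CPM, while 7 fibroblast markers summed to at most 12.1 CPM. A count of 0 allows up to 3 counts, which is 1.39 to 4.21 CPM depending on the library, and this limit covers counting error only.

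Whole profiles of twins were closer than those of other embryos. The distance, taken as 1 minus the Spearman correlation over the tested genes, averaged 0.120 ± 0.0331 (SD, n = 19 pairs; lowest 0.0796, median 0.113, highest 0.209) between twins and 0.138 over the 204 comparisons of non-twins within a site. In a one-sided permutation test that paired the libraries anew within sites, p was 1e-05, the smallest value that 100000 resamples can give. The ranges overlapped widely. Of the 19 pairs, 13 lay below the median of the non-twins (0.135) and 6 above it.

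Twins were closer after each ICSI site. The mean distance was 0.124 ± 0.0449 (SD, n = 6 pairs) between contralateral twins against 0.143 between non-twins, with an adjusted exact permutation p of 0.000577. For ipsilateral twins it was 0.124 ± 0.0297 (n = 7) against 0.138, with an adjusted exact permutation p of 0.000788. For equatorial twins it was 0.113 ± 0.0279 (n = 6) against 0.133, with an adjusted exact permutation p of 0.00308. No difference between the sites themselves passed the test: the largest, contralateral minus equatorial, was 0.0107, and all 3 comparisons had an adjusted exact two-sided permutation p of 0.998.

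A library's closest library among all 37 others was its own twin in 15 of 38 cases, 5 at each site (permutation p = 1e-05, again the smallest possible). In pairs Co-126, Co-128, Eq-131 and Eq-132 each twin was the closest to the other. At the other end, twin Co-122b ranked its own twin last of 37. Twins lay in adjacent wells of 1 plate, so twinship and neighbourhood on the plate coincide. The 11 non-twin comparisons of a site that also lay in adjacent wells averaged 0.128 ± 0.0156 (SD), a mean between that of the twins and that of the other 193 non-twins (0.139 ± 0.0295), and the part of the wells in the twins' distance was not tested. The ratio of the twins' total counts did not pass the test against their distance, with Pearson's r = 0.40 (permutation p = 0.0807) and Spearman's rho = 0.31 (permutation p = 0.191) over 19 pairs, and r = 0.05 without the 2 pairs farthest from the median ratio. The difference in detected genes, a relation added after the data were seen, gave r = 0.89 (permutation p = 2e-05) and rho = 0.74 (permutation p = 0.00029), and r = 0.72 without the 2 farthest pairs. The distance counts undetected genes as well, so both measures share them. Without pair Co-122 twins averaged 0.115 and non-twins 0.135, and without pairs Is-117, Is-121 and Co-122 they averaged 0.110 and 0.130, both with a permutation p of 1e-05.

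**Figure D1:**
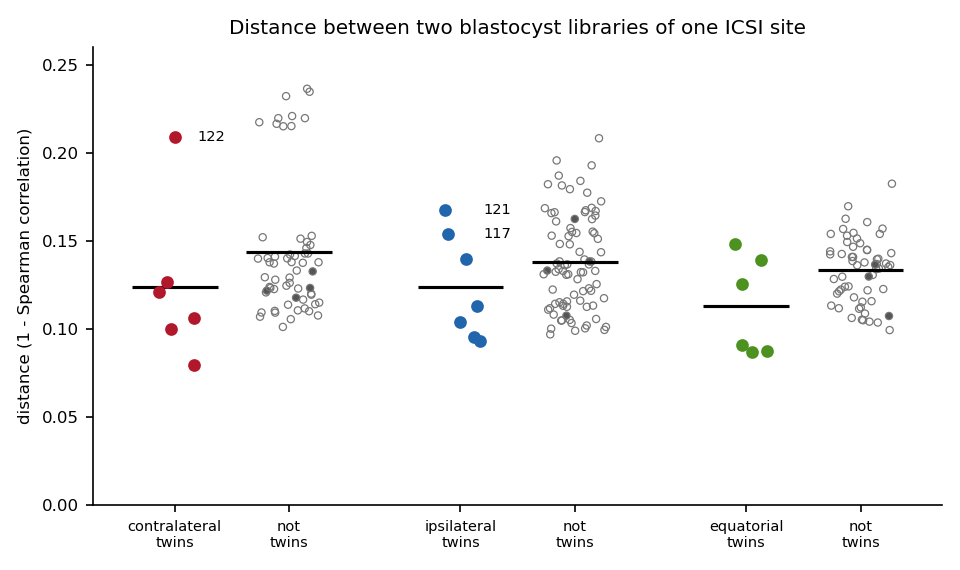
Distance (1 minus Spearman correlation, no unit) between twins (coloured points) and between non-twins of the same ICSI site (grey circles; filled where both lay in adjacent wells), with black lines at the means. Twin means of 0.124, 0.124 and 0.113 lie below the non-twin means of 0.143, 0.138 and 0.133, and pair Co-122 stands apart at 0.209.

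Gene by gene, likeness of twins was weak for most transcripts and nearly complete for a few. For each gene the variance of log2(CPM + 1) within pairs was set against that between pairs of a site. The intraclass correlation (ICC) from these variances is 1 where twins are identical and pairs differ, 0 where twins are no more alike than any embryos of the site, and negative where they are less alike. Its median over the 7701 genes was 0.110. It was above 0 for 5120 genes (66.5%) and above 0.5 for 375 (4.87%). The median within-pair SD was 0.44 on the log2 scale (5th to 95th percentile 0.17 to 1.03), of which counting error gives 0.17, or 14.01% of the within-pair variance for the median gene. The median of the SD between pairs beyond that was 0.12. Twins typically differed 1.32-fold in CPM + 1, and 439 genes (5.70%) had a within-pair SD over 1.

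The spread between twins fell steeply with expression, from a median SD of 0.88 in the lowest of 20 bins of genes (up to 23.2 CPM) to 0.16 in the highest (above 395.7 CPM). A relative SD is therefore also given below: a gene's within-pair SD over the median of genes at its level, so that 1 is typical. The median ICC was 0.06 in the lowest bin and 0.24 in the highest. ICCs and shares of called genes of the lists below are not adjusted for level. The pairs themselves differed in how far apart the twins were. In pair Co-126, 9.45% of the genes differed more than 2-fold between twins, whereas in pair Co-122 30.5% did, and this pair alone contributed 15.99% of all within-pair variance.

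The edgeR quasi-likelihood F test found 83 of 7701 genes, 1.08% of those tested, that differed between the pairs of a site beyond the spread between twins (adjusted p under 0.05); 956 (12.4%) had an unadjusted p under 0.05. The share called within sites was 0.26% in the lowest of the 20 bins by expression and 3.64% in the highest. Including differences between sites, 104 genes (1.35%) were called, among them 82 of the 83. The called genes had a median ICC of 0.68 (0.45 to 1.00) and a median within-pair SD of 0.34. Without pairs Is-117, Is-121 and Co-122, whose twins differed the most, the test called 176 genes, 79 of them among the 83. A higher count follows from the smaller spread left within pairs. In the opposite direction, no gene was called as less alike in twins than in other embryos by the unmoderated F statistic (before adjustment 1.64% passed). No gene differed between letters b and a in edgeR's paired test (469 unadjusted, 6.09%).

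Several genes with the strongest pair effect were present in both twins or missing from both. St6galnac4, a sialyltransferase (chromosome 2, 32587095 to 32599698, GRCm38), had 0 counts in 12 libraries, a median of 108.9 CPM and a highest level of 294 CPM. Both twins were at 0 in pairs Is-118, Is-121, Co-127, Co-128 and Eq-132. In pairs Is-119 and Co-125 it was at 0 in one twin and at 7.72 and 7.40 CPM in the other, and in the remaining pairs both twins had at least 50.4 CPM. Its ICC was 0.95 (edgeR adjusted p = 2.3e-10), and it was called at each of the 3 sites. The related St6galnac6 begins at 32599709, just beyond the end of St6galnac4 on the same strand, and both moved together (Pearson's r = 0.94 over 38 libraries, a description). Its levels ran from 0 to 59.9 CPM (median 20.7, ICC 0.92), and reads at the border of both genes cannot be assigned with certainty.

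AA465934, a noncoding transcript on chromosome 11 (83291699 to 83294632), behaved in the same way, with 3 of its 6 pairs at 0 shared with St6galnac4 (Is-118, Is-121 and Eq-132). It had no count in either twin of pairs Eq-115, Eq-116, Is-118, Is-119, Is-121 and Eq-132, a median of 43.9 CPM over all libraries and 80.5 and 106.5 CPM in the twins of pair Is-129 (ICC 0.98, edgeR adjusted p = 6.4e-10). Only in pair Co-125 did the twins split, at 0 and 4.03 CPM. Ren1, which encodes renin, had no count in 16 libraries, a median of 6.07 CPM and a highest level of 104 CPM (ICC 0.91, adjusted p = 1.7e-06). Ren1 reached 104 and 95.5 CPM in the twins of pair Is-119. In 7 of the 19 pairs the twins differed over 2-fold in it, in 4 of these with no twin above 6.55 CPM.

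Other called genes moved between a low and a high level rather than to 0. Tpm3-rs7, a tropomyosin-related sequence on chromosome 14 (113314608 to 113316754), ran from 8.09 to 234.7 CPM with a median of 182.8 CPM. Both twins of pairs Eq-114, Eq-115, Eq-116 and Co-126 were at 8.09 to 18.5 CPM and no other library was below 131.9 CPM (ICC 0.98, adjusted p = 9.9e-14). The low and the high levels did not overlap, and no pair was split between them. Rpl29, a ribosomal protein of the large subunit, ran from 77.3 to 353.6 CPM (median 106.8, ICC 0.90, adjusted p = 1.3e-09). The twins of pair Co-122 were split, at 112.4 and 285.5 CPM, the largest difference between twins for this gene. Tpm3-rs7, Rpl29, Ren1 and the called ribosomal genes Rps18, Rpl10, Rps2, Rps4x and Rpl21 belong to families with related genes or processed copies. How reads were divided among them was not tested, and these values are uncertain.

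Baiap2l1, which links membranes to actin, ran from 27.9 to 444.6 CPM (median 196.0, ICC 0.89, edgeR adjusted p = 6.3e-10). Twins were alike in most pairs, such as Is-117 (444.6 and 419.5 CPM) and Eq-116 (30.04 and 28.76 CPM), but pair Eq-112 was split at 42.55 and 186.4 CPM. Lgals4, a galectin that binds sugars on glycoproteins, ran from 1.24 to 334.1 CPM (median 198.9, ICC 0.85, adjusted p = 4.5e-09). Coil, coilin of the nuclear Cajal bodies, ran from 63.9 to 382.5 CPM with a median of 168.2 CPM, and no pair differed over 2-fold (ICC 0.88, adjusted p = 4.0e-08). Ipp, a kelch-repeat protein, ran from 1.89 to 196.9 CPM with a median of 67.97 CPM (ICC 0.87, adjusted p = 1.0e-06). All of these 12 genes with the smallest p, Tpm3-rs7 and the Y-linked pair included, stayed called in the 6 other fits tried and whichever pair was left out.

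**Figure D2:**
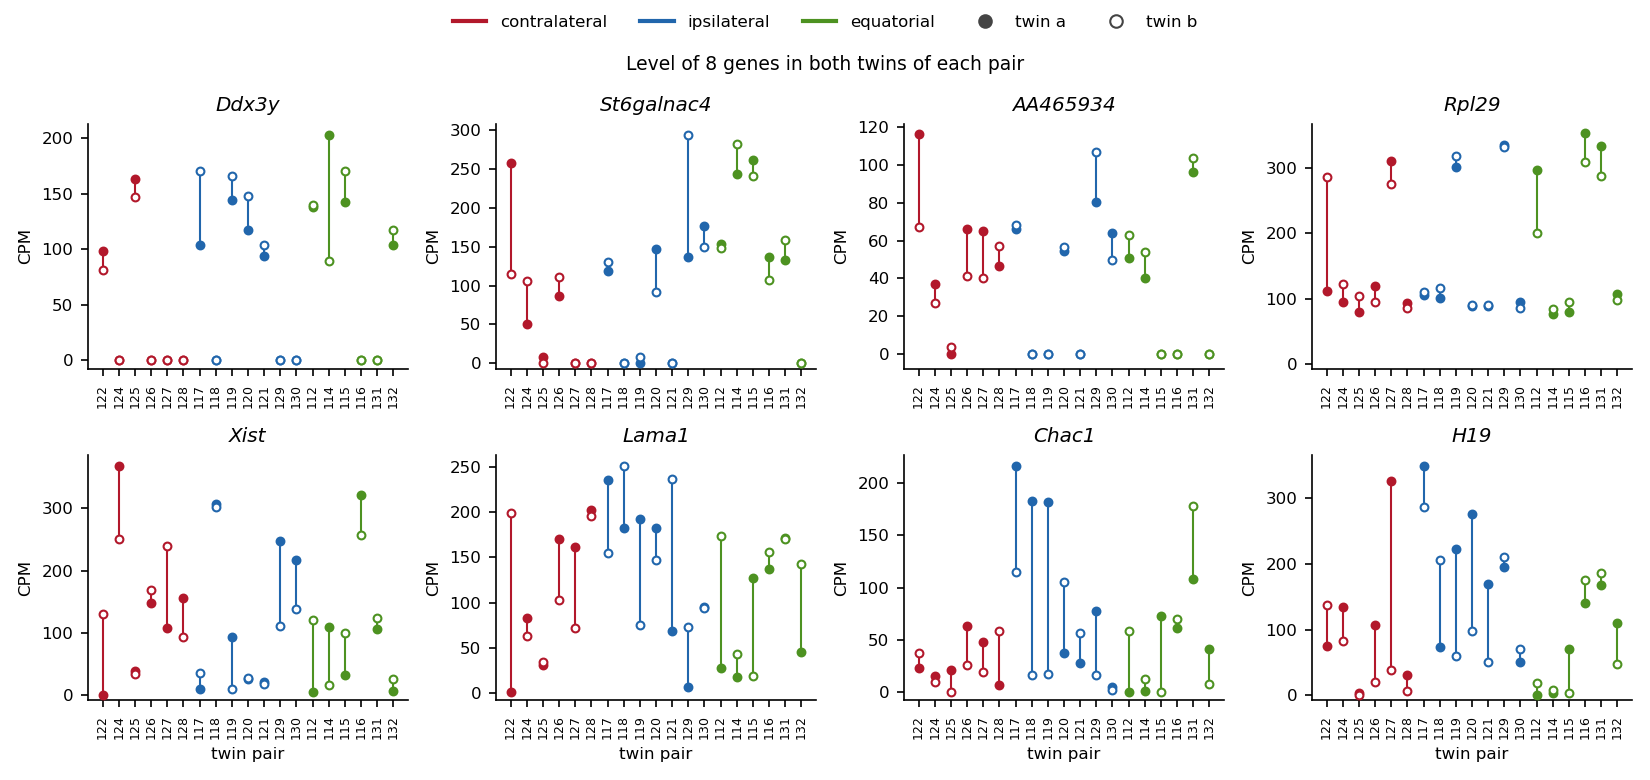
Level (CPM, linear axis) of 8 genes in both twins of each of the 19 pairs, coloured by ICSI site; filled points are a twins, open points b twins, and a line joins the twins of a pair. Ddx3y, St6galnac4 and AA465934 are at or near 0 in both twins or high in both, with ICCs of 1.00, 0.95 and 0.98, whereas Lama1 and Chac1 often differ within a pair (ICCs of 0.06 and 0.12).

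Of the sex-linked transcripts, Ddx3y and Eif2s3y were shared by twins and Xist often was not. The labels do not give the sex of an embryo. Ddx3y, an RNA helicase gene on the Y chromosome, had counts in both twins of 10 pairs and none in either twin of the other 9, with a median of 85.4 CPM and a highest level of 203 CPM (ICC 1.00, edgeR adjusted p = 7.2e-13). No pair was split. Eif2s3y, a Y-linked subunit of a translation initiation factor, ran from 0 to 181.1 CPM with a median of 41.6 CPM (ICC 0.99), and the 1 pair with a count in only one twin held 1.02 CPM there. Uty was at 0 in both twins of 8 pairs and in one twin of 1 pair, and Kdm5d in both of 9 and in one of 2, both at means below the test's level.

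Xist, the noncoding RNA that coats and silences 1 X chromosome of female cells, ran from 0.899 to 367.8 CPM (median 107.4). Its ICC was 0.39 and it was not called (edgeR adjusted p = 0.26). Every library without Ddx3y had at least 93.6 CPM of Xist. The libraries with Ddx3y ran from 0.899 to 130.4 CPM, so both ranges overlapped. Xist was at 0.899 CPM in one twin of pair Co-122 and 130.4 CPM in the other, and at 5.19 and 120.5 CPM in pair Eq-112. It was at 109.6 and 17.1 CPM in pair Eq-114 and at 93.2 and 10.6 CPM in pair Is-119. These 4 pairs, the ones that differed over 4-fold, had Ddx3y in both twins. Of 239 tested X-linked genes, 20 were called (8.37%, against 1.08% of all genes), so that the X chromosome held 3.1% of the tested and 24.1% of the called genes. The one with the smallest p, chosen after its values were seen, was Rbm3, a cold-inducible RNA-binding protein (ICC 0.84, edgeR adjusted p = 7.0e-05).

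Each site's own contrasts called 48 genes for contralateral (0.623%), 41 for ipsilateral (0.532%) and 44 for equatorial twins (0.571%). At all 3 sites 16 genes were called, among them Ddx3y, Eif2s3y, St6galnac4, St6galnac6, Baiap2l1, AA465934, Rpl29, Lgals4, Coil, Ipp, Ren1, and, outside the rule for named genes, Gsto1, a glutathione transferase, and Sord, sorbitol dehydrogenase. Tpm3-rs7 was called in contralateral and equatorial pairs, while all ipsilateral pairs were high (adjusted p = 0.94). The median ICC was 0.132 in contralateral, 0.071 in ipsilateral and 0.128 in equatorial twins, with median within-pair SDs of 0.43, 0.43 and 0.38. The limma test of the twins' absolute difference over the 3 sites called no gene (309 unadjusted, 4.01%), so no gene was shown to differ more between twins after one ICSI site than after another. A gene called at a single site (24, 19 and 22 genes) is not thereby shown to be particular to it.

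Over all sites, trophectoderm genes were no more alike in twins than the median gene. The median ICC was 0.03 against 0.110 for all genes, and 16 of 19 tested members had a relative SD over 1 (median 1.36, against 1 by construction). By site, the median ICC was 0.30 in contralateral, -0.19 in ipsilateral and 0.15 in equatorial twins. For all genes it was 0.132, 0.071 and 0.128 in the same order, and for mitochondrially encoded transcripts 0.27, -0.22 and 0.31. Whether the sites differ for this list was not tested. None of the 19 was called, where 1.08% of all tested genes were. At that share, a list of this size is not set apart by having no call, here and below. Their summed level ran from 6390 to 9021 CPM, and the largest difference between twins was 1.27-fold, in pair Eq-115. Cdx2, the transcription factor that sets the lineage, ran up to 299.4 CPM with a median of 187.5 CPM, and twins differed 1.35-fold in the median pair (ICC -0.10, edgeR adjusted p = 0.78). The keratins Krt8 and Krt18 were steadier, with within-pair SDs of 0.17 and 0.16. The members nearest to a call were Tspan8, a tetraspanin (368.8 to 884.8 CPM, median 577.9, ICC 0.43, edgeR adjusted p = 0.097) and Lgals3 (ICC 0.33, adjusted p = 0.17). Tspan8 was called without pairs Is-117, Is-121 and Co-122 (edgeR adjusted p = 0.041). The widest apart were Krt19, with 0 and 51.5 CPM in the twins of pair Co-127, and the transcription factor Elf5, with 0 and 65.3 CPM in those of pair Eq-114.

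Epiblast genes were also not called (0 of 16, against 1.08% of all genes), with a median ICC of 0.05 and a median relative SD of 1.46. Without pair Co-122 the median ICC was 0.11, against 0.12 for all genes. By site it was 0.15 in contralateral, 0.15 in ipsilateral and -0.13 in equatorial twins, against 0.132, 0.071 and 0.128 for all genes. Whether the sites differ for this list was not tested. The summed level of the epiblast genes ran from 2391 to 3698 CPM and differed between twins at most 1.30-fold, in pair Eq-116. Nanog, a core pluripotency factor, ran from 18.3 to 93.4 CPM with a median of 50.99 CPM, had an ICC of -0.33 and differed over 2-fold between twins in 4 of 19 pairs. Sox2 ran from 4.50 to 117.8 CPM with a median of 40.9 CPM, and twins differed 1.87-fold in the median pair (ICC 0.04). Zfp42, another pluripotency marker, was steadier, at 253.8 to 416.3 CPM (median 339.6, within-pair SD 0.15, ICC 0.34). Bmp4, a signalling ligand, had the highest ICC of the list (0.51, edgeR adjusted p = 0.11), and Spic, a transcription factor, the largest spread (0 to 94.4 CPM, within-pair SD 1.83).

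Primitive endoderm genes differed widely between twins and showed some likeness over all sites. Their median within-pair SD was the highest of the lists over all 19 pairs, but without pair Co-122 it was 0.65 against 0.69 for epiblast genes, whose median SD was also the higher in ipsilateral (0.67 against 0.64) and equatorial twins (0.63 against 0.51). All 15 tested members had a relative SD over 1 (median 1.86), and the median within-pair SD was 0.99. The median ICC was 0.20. By site it was 0.04 in contralateral, 0.05 in ipsilateral and 0.24 in equatorial twins, against 0.132, 0.071 and 0.128 for all genes. Of the 15 members, 2 were called, against 1.08% of all genes. Both are matrix genes. Sparc, a secreted matrix glycoprotein (chromosome 11, 55394500 to 55423183), ran up to 532.7 CPM with a median of 254.2 CPM (ICC 0.59, edgeR adjusted p = 0.021). Lamb1, the beta chain of laminin (chromosome 12, 31265234 to 31329644), ran from 49.5 to 256.0 CPM with a median of 150.8 CPM (ICC 0.57, adjusted p = 0.021). Both twins of pair Co-125 were low in Sparc (105.8 and 58.01 CPM) and both twins of pair Eq-131 high (532.7 and 422.9 CPM). The calls of Sparc and Lamb1 were lost when some single pairs were left out, with adjusted p up to 0.12 and 0.10.

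The other members also had a spread above that typical of their level, but not all differed widely between twins. Lrp2 and Apoe had within-pair SDs of 0.30 and 0.34, and these and Gata6 lay below the 0.44 of the median gene. The transcription factors Gata6 (136.5 to 575.6 CPM, median 295.2) and Sox17 (0 to 89.8 CPM, median 33.98) had within-pair SDs of 0.35 and 1.25, and Gata4 (0 to 63.2 CPM, median 17.6) of 1.57. Gata4 was called without pairs Is-117, Is-121 and Co-122 (edgeR adjusted p = 0.042, against 0.40 with them). Pdgfra, the receptor that marks the lineage, was at 0 in one twin and 61.7 CPM in the other in pair Eq-112 (ICC 0.01). Lama1, the alpha chain of the same laminin, ran from 0.899 to 251.2 CPM (median 132.2), with 0.899 and 199.0 CPM in the twins of pair Co-122, and had 4.16 times the SD typical of its level. Much of the spread came from pair Co-122, whose a twin had the lowest summed level of the list, 1186 CPM, and whose twins differed 2.03-fold in that sum. Without this pair the median SD was 0.65 and the median relative SD 1.77, and without pairs Is-117, Is-121 and Co-122 they were 0.55 and 1.76, with a median ICC of 0.38. By site, the median SD of the list was 1.53 in contralateral, 0.64 in ipsilateral and 0.51 in equatorial twins, and in contralateral twins without pair Co-122 it was 0.51.

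**Figure D3:**
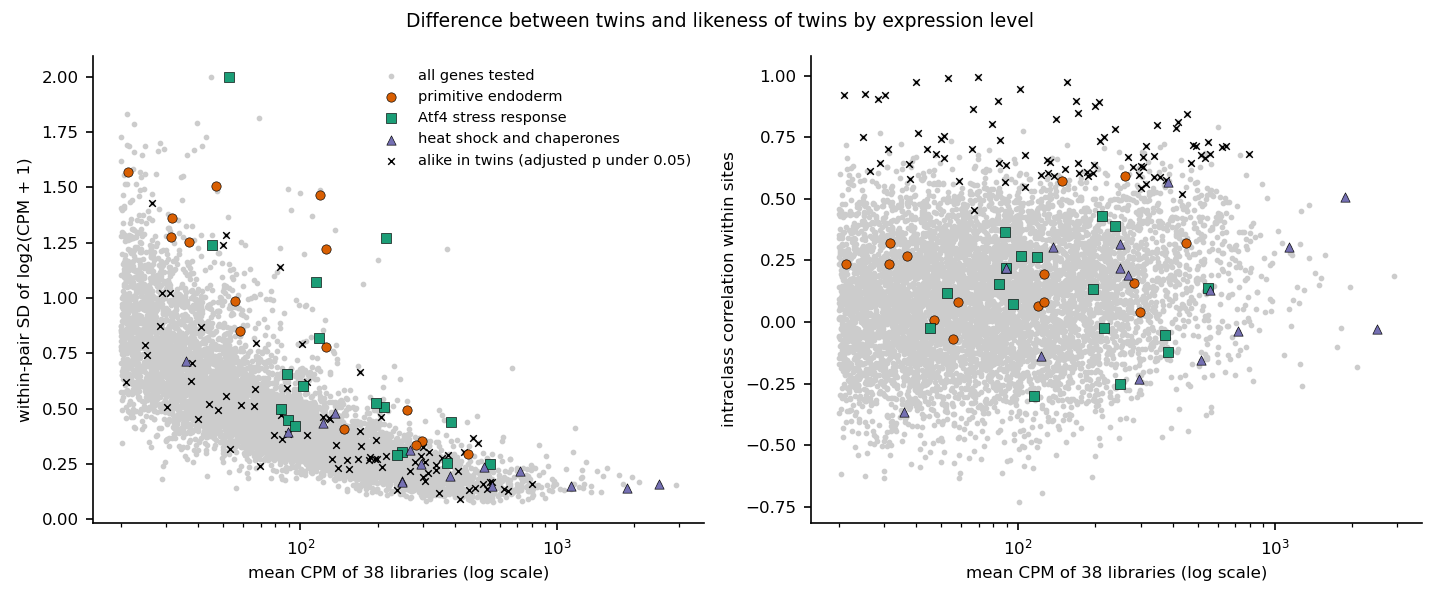
Within-pair SD of log2(CPM + 1) (left) and ICC within sites (right) of the 7701 tested genes against mean CPM (log axis), with 3 gene lists in colour and the 83 genes called as alike in twins as crosses. All 15 primitive endoderm and all 18 Atf4 genes have a spread above the median of genes at their level, and heat shock genes have a median relative SD of 1.00.

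Genes that build the blastocoel had a somewhat higher median ICC than genes at their level, with a typical spread between twins. Whether this ICC differs from that of other genes was not tested. The 16 junction, pump and channel genes had a median ICC of 0.27 and a median within-pair SD of 0.28 (relative SD 0.98). For all genes at the level of their median (148.8 to 177.5 CPM) the median ICC was 0.145. The ICC of 0.27 was the highest of the lineage, metabolic and stress lists, also with TMM factors or a pseudocount of 5, but not in other settings. Without pair Co-122 it was 0.31, against 0.34 for primitive endoderm genes, and without pairs Is-117, Is-121 and Co-122 0.31 against 0.38. With counts thinned to the lowest total it was 0.225, against 0.256 for oxidative and metal stress genes. By the edgeR test 1 of the 16 was called. F11r, a junctional adhesion molecule, had an ICC of 0.47 (adjusted p = 0.23). The aquaporin gene Aqp8 ran from 0 to 91.9 CPM (median 24.8) with an SD of 1.32 and an ICC of 0.40.

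Metabolic lists held no gene called within sites, where 1.08% of all tested genes were. The 15 tested glycolysis genes had a median ICC of 0.20 and a median within-pair SD of 0.28 (relative SD 1.07). The lactate and pyruvate transporter Slc16a1 ran from 80.2 to 227.5 CPM with a median of 136.4 CPM and led the list (ICC 0.43, edgeR adjusted p = 0.27). The widest apart were Pfkp, a phosphofructokinase (0 to 56.2 CPM, median 20.02, SD 1.56), Ldha, lactate dehydrogenase (2.86 to 137.5 CPM, median 66.04, SD 1.01), and the glucose transporter Slc2a1 (2.697 to 103.8 CPM, median 53.4, SD 0.87, ICC -0.16). Slc2a1 was at 2.697 CPM in one twin of pair Co-122 and at 59.02 CPM in the other. For the 22 tested genes of sterol synthesis and uptake the median ICC was 0.18 and the relative SD 1.12. Stard4, a sterol carrier, had an ICC of 0.56 (32.4 to 213.8 CPM, median 118.7, adjusted p = 0.10) and was called in the edgeR test that includes differences between sites (adjusted p = 0.039). Hmgcs1, an early enzyme of the pathway, had one of -0.12 and differed 2.57-fold in pair Is-121 (408.4 and 158.4 CPM).

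The 13 mitochondrially encoded transcripts had a small absolute spread (median within-pair SD 0.23) with a median relative SD of 1.34, and 12 of 13 were above 1. None was called, and their median ICC was 0.14, against 0.24 for the bin of genes with the highest expression. Their sum ran from 9115 to 18120 CPM and differed at most 1.31-fold between twins, in pair Eq-114, whose b twin was the deepest library. The counting kept 1 read per pair of end positions, so fold changes of such abundant transcripts may be understated, which was not tested. For one, mt-Cytb had a median of 1.53 counts per exonic base.

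Among stress responses, genes of the Atf4 pathway differed the most between twins for their level over all sites, with the widest spread in equatorial twins. Atf4 is a transcription factor made when amino acids run short or proteins misfold, and it raises genes for amino acid synthesis and uptake. All 18 tested members had a relative SD over 1 over all sites (median 1.75, and 1.92 without pairs Is-117, Is-121 and Co-122). None was called, against 1.08% of all genes (median ICC 0.14). By site, the median within-pair SD of the list was 0.40 in contralateral, 0.37 in ipsilateral and 0.77 in equatorial twins. For all genes it was 0.43, 0.43 and 0.38 in the same order. The summed level ran from 1746 to 5104 CPM, and twins differed up to 2.17-fold in it, in pair Eq-115. This pair also held the largest twin difference of Trib3, Chac1, Nupr1, Shmt2, Sesn2 and Slc7a5. How far the equatorial spread rests on pair Eq-115 was not tested, nor was a difference between sites for this list. Atf4 itself, whose protein is set mainly by translation, had a within-pair SD of 0.26 and a relative SD of 1.27. Asns, asparagine synthetase, ran from 39.2 to 380.1 CPM with a median of 223.1 CPM and had the highest ICC of the list (0.43, edgeR adjusted p = 0.11).

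Trib3, a pseudokinase that damps the response, ran from 13.7 to 269.9 CPM with a median of 99.4 CPM, and its lowest and highest levels were those of the twins of pair Eq-115. Nupr1, a small stress-induced chromatin protein, ran from 9.56 to 489.8 CPM with a median of 226.7 CPM, again with 267.5 and 9.56 CPM in the twins of pair Eq-115 (relative SD 5.34). Chac1, which degrades glutathione, ran from 0 to 216.4 CPM with a median of 32.3 CPM and differed over 2-fold in 14 of 19 pairs and over 4-fold in 9 (SD 2.00). In pairs Is-118 and Is-119 it was at 182.9 and 182.1 CPM in the a twin and at 16.3 and 17.4 CPM in the b twin, while in pair Eq-116 the twins were alike at 61.2 and 70.1 CPM.

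The promoter windows of the 4 genes just described are shown because each holds 1 match to TGATGNAA, the composite element that Atf4 binds with C/EBP partners. They run from 250 bases before to 50 bases after the start site (RefSeq, GRCm38.p6), 5′ to 3′ along the gene, and capitals mark the match on either strand.

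Asns (chr6:7693160-7693459, minus strand): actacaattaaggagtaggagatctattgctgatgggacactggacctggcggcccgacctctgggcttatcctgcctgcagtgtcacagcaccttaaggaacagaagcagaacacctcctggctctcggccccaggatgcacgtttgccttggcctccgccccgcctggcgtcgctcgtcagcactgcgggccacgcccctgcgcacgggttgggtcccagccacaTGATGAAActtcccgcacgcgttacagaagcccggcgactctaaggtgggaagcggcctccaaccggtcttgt

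Trib3 (chr2:152344011-152344310, minus strand): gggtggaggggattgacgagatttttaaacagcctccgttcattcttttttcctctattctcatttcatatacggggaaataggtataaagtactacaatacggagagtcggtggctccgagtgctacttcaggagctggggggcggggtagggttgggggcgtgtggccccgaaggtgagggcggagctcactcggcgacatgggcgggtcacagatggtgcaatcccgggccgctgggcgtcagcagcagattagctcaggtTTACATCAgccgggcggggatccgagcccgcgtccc

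Chac1 (chr2:119350992-119351291, plus strand): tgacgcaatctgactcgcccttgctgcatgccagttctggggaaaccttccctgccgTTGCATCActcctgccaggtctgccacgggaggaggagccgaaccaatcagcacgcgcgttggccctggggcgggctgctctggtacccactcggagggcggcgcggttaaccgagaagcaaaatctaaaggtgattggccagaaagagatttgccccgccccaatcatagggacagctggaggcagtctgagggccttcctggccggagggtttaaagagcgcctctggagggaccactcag

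Nupr1 (chr7:126625421-126625720, minus strand): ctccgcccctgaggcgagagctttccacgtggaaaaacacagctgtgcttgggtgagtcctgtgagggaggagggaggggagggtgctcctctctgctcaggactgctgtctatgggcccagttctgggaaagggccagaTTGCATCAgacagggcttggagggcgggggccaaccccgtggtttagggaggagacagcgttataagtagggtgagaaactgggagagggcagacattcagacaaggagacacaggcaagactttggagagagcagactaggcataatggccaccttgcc

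Of the 18 tested Atf4 genes, 16 had a promoter window and 5 of these (31.25%) held the motif, against 2.56% of the 6240 tested genes with a window. A match is a description of these letters and not a bound site. Among genes with a window, TATAAA, searched on both strands, was held by 16.4% of the called genes (12 of 73) and 7.66% of all tested genes. Of all 27025 genes with a window, tested or not, 15.7% held it. TGCGCNC was held by 16.4% of the called and 32.3% of all tested genes with a window.

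Heat shock and oxidative stress genes were among the steadiest. The 15 tested heat shock genes had a median within-pair SD of 0.22 (relative SD 1.00) and a median ICC of 0.19. For all genes at the level of their median (272.3 to 395.5 CPM) the median ICC was 0.20. Hsp90b1, the chaperone of the endoplasmic reticulum, ran from 219.7 to 540.8 CPM with a median of 374.3 CPM and missed the threshold (ICC 0.57, edgeR adjusted p = 0.056). It passed without pair Co-122 (0.045), without pairs Is-117, Is-121 and Co-122 (0.043), and in 7 of the 19 fits that leave out 1 pair. The inducible Hspa1a had no count in 34 of 38 libraries and Hspa1b ran from 0 to 25.2 CPM with a median of 3.27 CPM, both below the level of the test. The 15 tested oxidative and metal stress genes had a median SD of 0.21 (relative SD 0.98) and a median ICC of 0.25. None was called, against 1.08% of all genes. Fth1, the heavy chain of ferritin, ran from 478.0 to 831.7 CPM (median 586.9, ICC 0.41), and Gclc, a subunit of the enzyme that starts glutathione synthesis, from 0.787 to 71.96 CPM (median 25.0, ICC 0.48).

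Of p53 and its targets, 12 were tested and none called, against 1.08% of all genes (median ICC 0.14, relative SD 1.09). Cdkn1a, the cell cycle inhibitor, ran from 43.1 to 285.2 CPM with a median of 133.8 CPM, and in pair Is-117 the twins were at 50.2 and 198.3 CPM (ICC 0.03). Trp53 itself had an ICC of 0.44 (edgeR adjusted p = 0.30). The 18 mitosis genes had a median ICC of 0.04 and none was called, against the same 1.08%. Cenpf, a kinetochore protein, differed over 2-fold between twins in 5 pairs, with 140.1 and 329.2 CPM in pair Is-117 (ICC -0.43). Of 13 tested imprinted genes none was called, again against 1.08% of all genes (median ICC 0.09). H19, the maternally expressed noncoding RNA, had both a wide spread within pairs and a high ICC: it ran from 0 to 349.1 CPM (median 79.1, SD 1.37, ICC 0.58, adjusted p = 0.19). Both twins were low in pairs Eq-114 and Co-125 (at most 7.40 CPM) and both high in pair Is-117 (349.1 and 287.3 CPM), whereas pair Co-127 held 326.7 and 38.1 CPM.

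The largest within-pair SDs of all tested genes belonged to Id3 (2.00), Chac1, Spic, Rhox5, Flrt3, Dkk1, Cdk18, Rhod, Foxq1, Plpp1, Vegfa and Rbfaos, all from 1.69 to 2.00. Each had no count in 1 to 6 libraries, and none was called. Id3, an inhibitor of basic helix-loop-helix factors, ran from 0 to 166.4 CPM with a median of 40.4 CPM and was at 0 and 63.7 CPM in the twins of pair Co-125 (ICC -0.13). Vegfa, the angiogenic ligand, was at 0 and 70.1 CPM in those of pair Eq-112 (highest 100.8, median 37.3, ICC -0.29). Rhox5, an X-linked homeobox gene, was the exception in likeness, with an ICC of 0.53 and an edgeR adjusted p of 0.12, 0.045 without pair Co-122 and 0.055 without pairs Is-117, Is-121 and Co-122. It ran from 0 to 186.4 CPM with a median of 64.6 CPM, and the twins of pair Eq-114 held 3.46 and 127.7 CPM.

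Some genes had a strongly negative ICC, so that their values differed more within pairs than between them. None passed the unmoderated F test for this, and only 1.64% of all tested genes had an unadjusted p under 0.05 in it. The genes named here are the extremes of all tested genes. Ecpas, a proteasome adaptor, had the lowest ICC (-0.73) at 58.8 to 133.7 CPM (median 99.3), with both extremes in the twins of pair Eq-114. Tox4, a chromatin protein, likewise had its extremes, 49.5 and 207.2 CPM, in the twins of pair Co-122 (median 121.4, ICC -0.69). Timp3, an inhibitor of matrix proteases, had 1.80 and 50.8 CPM in pair Co-122 (highest 79.4, median 27.7, ICC -0.63).

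Differences between twins went together for some pairs of functionally related genes. Of 11 relations tested over the 19 pairs, each as the a minus b difference of log2(CPM + 1), 4 passed a permutation test after adjustment, of which 3 are described. The trophectoderm keratins Krt8 and Krt18, which form 1 filament, had Pearson's r = 0.83 (permutation p = 4e-05, adjusted 0.00044) and Spearman's rho = 0.80 (permutation p = 0.0001, adjusted 0.0011), with the same sign in 15 pairs. The metallothioneins Mt1 and Mt2 had r = 0.74 (permutation p = 0.00043, adjusted 0.00237) and rho = 0.68 (permutation p = 0.00189, adjusted 0.0104). Asns and Trib3 had r = 0.69 (permutation p = 0.00155, adjusted 0.00568) and rho = 0.55 (permutation p = 0.0153, adjusted 0.0459). Without the 2 farthest pairs, r was 0.72, 0.61 and 0.57 in the same order. With TMM-scaled CPM the adjusted rank p-value (permutation) of Asns and Trib3 was 0.0652.

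The other 7 relations did not pass, among them Nanog with Sox2 (r = 0.37, adjusted permutation p = 0.162), Sox17 with Gata4 (r = 0.36, 0.162) and Cdkn1a with Mdm2 (r = -0.06, 0.801). Slc2a1 and Ldha ran in opposite directions without passing (r = -0.44, adjusted permutation p = 0.155). As Krt8, Krt18, Mt1 and Mt2 reached over 1 count per exonic base in a library, their differences may be compressed, which was not tested.

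Mt1 ran from 901.6 to 1872 CPM with a median of 1245 CPM and Mt2 from 382.0 to 771.4 CPM with a median of 518.3 CPM, both bind zinc and copper, and in both the lowest library was twin Is-121b and the highest twin Co-122a. Their neighbouring promoters are shown because both carry several letters of the metal response element, to which the zinc sensor Mtf1 binds. The windows are as before, and capitals mark TGCGCNC or TGCACNC on either strand, with 3 matches in Mt1 and 4 in Mt2. Of all tested genes with a window 32.3% and 14.5% hold at least 1 match to the first and the second form, so such letters are common.

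Mt1 (chr8:94178839-94179138, plus strand): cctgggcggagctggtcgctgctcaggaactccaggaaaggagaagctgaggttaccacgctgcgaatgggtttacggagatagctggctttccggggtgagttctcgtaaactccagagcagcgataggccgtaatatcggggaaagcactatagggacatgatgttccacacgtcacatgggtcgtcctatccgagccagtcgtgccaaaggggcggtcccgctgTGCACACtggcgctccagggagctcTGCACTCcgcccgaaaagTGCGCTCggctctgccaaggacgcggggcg

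Mt2 (chr8:94172368-94172667, plus strand): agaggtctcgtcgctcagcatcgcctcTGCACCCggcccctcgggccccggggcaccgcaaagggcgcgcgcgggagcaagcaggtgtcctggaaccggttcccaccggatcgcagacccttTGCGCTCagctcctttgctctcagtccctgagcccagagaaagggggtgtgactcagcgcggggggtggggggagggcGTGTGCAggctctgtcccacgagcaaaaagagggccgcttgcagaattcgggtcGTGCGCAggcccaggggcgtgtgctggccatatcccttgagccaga

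**Figure D4:**
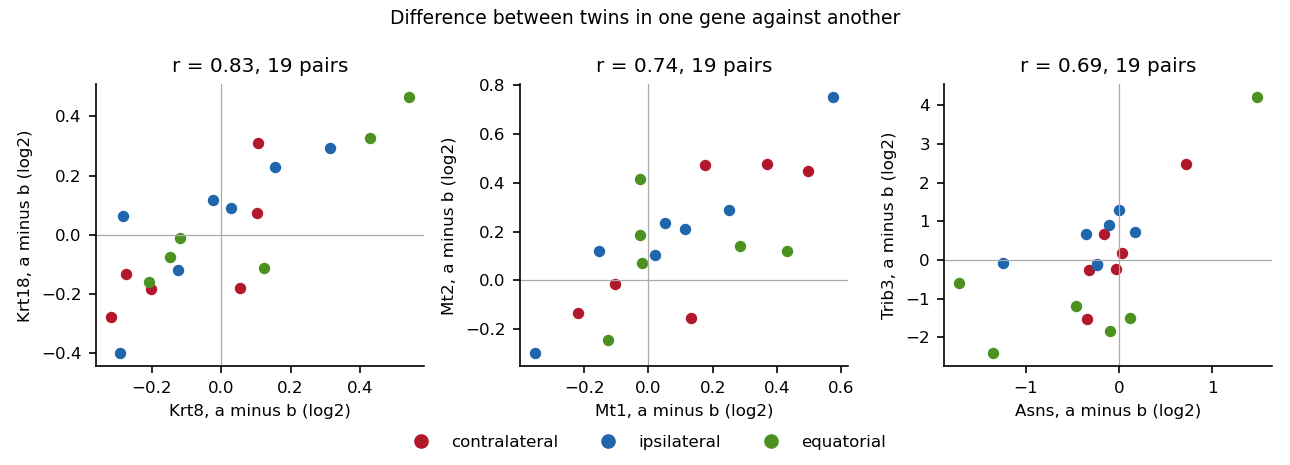
Difference between twins (a minus b, log2 of CPM + 1) in one gene against that in another, 1 point per pair, coloured by ICSI site. From left to right r is 0.83, 0.74 and 0.69, and Trib3 differs the most, 18.5-fold, in pair Eq-115.

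Averaged over whole chromosomes, pairs Co-128 and Eq-114 had the largest autosomal deviations; this summary was added after the data were seen, carries no test, and DNA was not measured. The level of a chromosome in a library was taken as the median deviation of its tested genes from their medians over the 38 libraries. In pair Co-128 chromosome 17 (375 genes) stood at 0.37 and 0.41 on the log2 scale in the a and b twins, with 81.9% and 83.2% of its genes above 0, while the other 36 libraries lay between -0.09 and 0.05. All windows of 20 megabases along the chromosome were raised in both twins, by 0.30 to 0.50. The twins thus shared this deviation.

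In pair Eq-114 the twins differed. Chromosome 5 (488 genes) stood at -0.28 in the a twin, with 27.3% of its genes above 0, and at 0.04 in the b twin, while the other 36 libraries lay between -0.07 and 0.05. In the a twin the windows of chromosome 5 stood at -0.23 to -0.51. In the b twin the windows from 40 to 100 megabases stood at -0.19 to -0.23 and the others at 0.04 to 0.15. On chromosome 9 (443 genes) it was twin Eq-114b that was low, at -0.16 against 0.02 in the a twin, with the other libraries between -0.09 and 0.04. Chromosome 13 (279 genes) stood at -0.16 in twin Is-120a and at 0.14 in twin Co-126a. The X chromosome stood at -0.33 to 0.01 in the libraries with Ddx3y and at 0.00 to 0.34 in those without. Of the genes called in contralateral twins 5 of 48 lay on chromosome 17, which holds 375 of the 7701 tested genes, and the part of pair Co-128 in these calls was not tested.

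**Figure D5:**
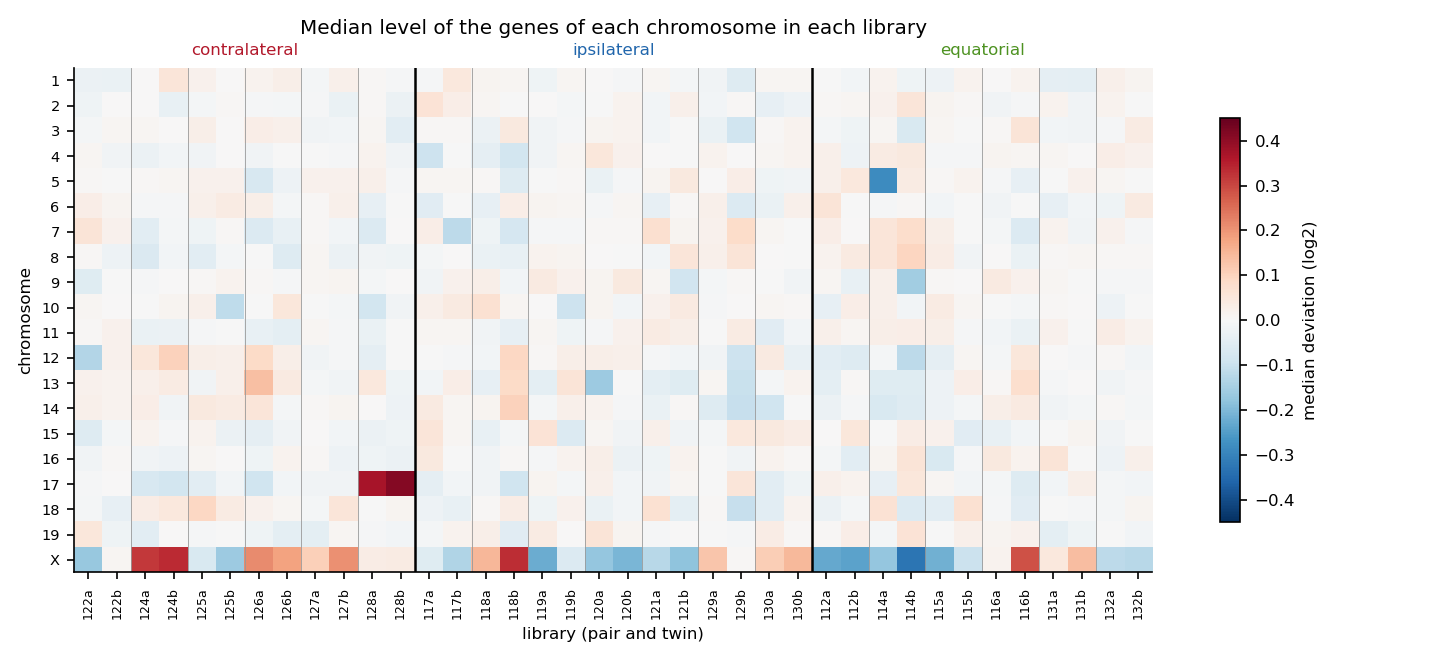
Median deviation (log2, colour) of the tested genes of each chromosome from their medians over the 38 libraries, with libraries in columns by pair and ICSI site. Chromosome 17 is raised in both twins of pair Co-128 (0.37 and 0.41), chromosome 5 is lowered in twin Eq-114a (-0.28), and the X chromosome runs from -0.33 to 0.34.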

How the data were processed

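RNA of single blastocysts was amplified as full-length cDNA and sequenced by the authors, who per the labels and the study's methods trimmed reads with Trimmomatic (039), checked them with FastQC (0.12.1), aligned them to GRCm38 (GENCODE M23 annotation) with STAR (2.7.10b), run in SmartSeq mode with no use of strand, and kept 1 read per pair of end positions. The deposited values are whole-number counts of reads per gene, not normalized, for 32285 genes. The deposited sparse matrix holds the same counts in all 2227665 entries compared. The kit has no molecular identifiers, so intervals and limits cover counting error only. Depth was 713410 to 2161062 counts per library, and genes at low levels carry the larger error.

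Groups, pairs and letters came from the sample labels, where a shared number marks the same embryo. That pairing is by design and not inferred from the data. Nothing beyond the pair says which samples shared a culture or a day, so p-values measure the spread between these libraries. Positions came from GENCODE M21 of GRCm38, which matched 32158 of the genes. Promoter windows came from RefSeq on GRCm38.p6 (6240 of 7701 tested genes, 81.0%, matched by symbol).

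CPM and log2(CPM + 1) were computed for the 7701 genes with a mean CPM of 20 or more over the 38 twin libraries. The ICC is the difference of the mean squares between and within pairs over their sum. Pair effects were tested on counts with edgeR (4.0.16, R 4.3.3), a robust quasi-likelihood fit with 1 coefficient per pair and TMM factors, with Benjamini-Hochberg adjustment over all tested genes at 0.05. For contrasts within a site, all 19 pairs share the estimate of the spread. limma (3.58.1) tested absolute twin differences between sites. Distances and relations used permutation tests in scipy (1.17.1) with 100000 resamples, or all re-pairings of a site (10395 or 135135). The fits and the ICC were tested on simulated data. Alternatives were RLE factors, other filters, a pseudocount of 5, counts thinned to 713410, limma, DESeq2 (1.42.0), other distances and leaving out each pair.

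Named genes were the 12 with the smallest p, the 12 with the largest within-pair SD and the 6 with the lowest ICC, leaving out predicted genes, then of each list the 3 tested members with the highest ICC and the 3 with the largest SD, the sex-linked transcripts and the genes of the relations. The members, lists and relations were chosen with earlier results of these data known. The lists also held 13 oocyte and maternal transcripts, of which 2 were tested and none called. Blastomere libraries were not used here. Values of some named genes are not reported here.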

Additional observations from a re-analysis of the deposited data

Results flagged for a closer look

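In 63 groups of 6 or 7 pairs of one site, 11 had a pair farther from the others than Dixon's 95% criterion allows. Chance flags about 1 in 20 groups that are chosen beforehand. The chromosomes screened, 5, 9 and 17, were those where pairs Co-128 and Eq-114 had already been seen to deviate. The 11 flags therefore cannot be compared with that rate. Among contralateral pairs the twins of pair Co-122 were the farthest apart, at a distance of 0.209 (median of the site 0.114), and by the root mean square difference over genes, 1.41 (median 0.767), on the log2 scale. The mean chromosome 17 deviation of both twins of pair Co-128 was 0.39 (the next contralateral pair was at -0.00161), and the mean chromosome 5 deviation of pair Co-126 was -0.0478. For the blastocoel genes the log2 ratio of the a to the b twin was 0.31 in pair Co-125, against a site median of -0.02.

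Among ipsilateral pairs the chromosome 5 deviation, a minus b, was 0.0611 in pair Is-118. Among equatorial pairs pair Eq-114 stood apart in the mean deviation of chromosome 5 (-0.12), in its a minus b difference (-0.32) and in that of chromosome 9 (0.18). In pair Eq-115 the log2 ratio of the a to the b twin was 0.35 for the summed trophectoderm genes (site median -0.05) and 1.09 for the summed Atf4 genes (site median -0.45). Their causes were not tested.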

How the results depend on the processing

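The number of genes called as alike in twins rested on the filter, the tool and single pairs. Over all sites it was 1070 with every gene that had a count tested, 755 with DESeq2's likelihood ratio test, 78 to 164 with 1 pair left out (164 without pair Co-122) and 221 without pairs Is-117, Is-121 and Co-122, against 104. Within sites it was 919, 644, 69 to 137 (137 without pair Co-122) and 176, against 83. Of the 919 genes, 679 were among the 7701 genes of the main test, and 82 were among the 83. Testing every gene gave 318, 256 and 362 calls for contralateral, ipsilateral and equatorial pairs, and contralateral libraries fitted alone gave 14 (48 with the shared spread). At a mean CPM of 100 or more the median ICC was 0.15 and the median within-pair SD 0.28. The differences in distance between sites changed sign, far from any call: contralateral minus ipsilateral was -0.0193 at a mean CPM of 100 or more and -2.43e-05 without X and Y, and contralateral minus equatorial was -0.00619 at 100 CPM. All other alternative values of the main results kept their direction and side. Of the 83 genes, 39 were called whichever pair was left out. The fit of letter b against a without the replicate block called 0 genes (327 with an unadjusted p under 0.05), as did the fit with pairs as the block. Causes were not tested. Depth limits genes near 20 CPM most.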
